A study of Mus musculus with 8 samples.

Results

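MEF2 proteins, serum response factor (SRF) and the myocardin family form 2 linked groups of transcription regulators of muscle. The account below covers 7 of their genes, Mef2a, Mef2c, Mef2d, Srf, Myocd, Mkl1 and Mkl2, which were picked by symbol from a table of 13540 genes. All 7 symbols were found. Their identifiers in the table are ENSMUSG00000030557 (Mef2a), ENSMUSG00000005583 (Mef2c), ENSMUSG00000001419 (Mef2d), ENSMUSG00000015605 (Srf), ENSMUSG00000020542 (Myocd), ENSMUSG00000042292 (Mkl1) and ENSMUSG00000009569 (Mkl2). Poly(A) RNA came from 129/Ola mouse embryonic stem cells and from their descendants during differentiation into heart muscle. They were collected on day 0 as stem cells (ESC), on day 4 as mesoderm (MES), on day 5.3 as cardiac precursors (CP) and on day 10 as cardiomyocytes (CM). Each stage had 2 libraries, which makes 8. Differentiation began in serum-free embryoid bodies. These were taken apart and aggregated again with human BMP4, Activin A and VEGF, and a plated culture followed, with FGF10, basic FGF and VEGF in the medium. The labels name no allele and no sorting of the cells for any stage.

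MEF2 and SRF both bind DNA through a MADS domain. MEF2 binds an A/T-rich site in many muscle genes and switches between repression, when class IIa histone deacetylases hold it, and activation, when kinases and calcineurin release it. SRF binds the CArG box and takes its direction from partners. With ternary complex factors it drives immediate-early genes, with the actin-sensing coactivators MRTF-A and MRTF-B (encoded by Mkl1 and Mkl2, named Mrtfa and Mrtfb in newer annotation) it drives cytoskeletal genes, and with myocardin (Myocd), which is found in heart and smooth muscle, it drives contractile genes. In mouse embryos Mef2c is required for looping and growth of the heart tube, and Srf is required for mesoderm formation.

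The table gives 1 value per gene and stage in RPKM, reads per kilobase of gene model and per 1000000 reads. It holds no separate values for the 2 libraries of a stage, so the differences below could not be checked against replicates and carry neither an SD nor a p-value. The sequencing depth, estimated from the steps between low values, was 75.3, 62.0, 64.8 and 88.5 in units of 1000000 reads for ESC, MES, CP and CM. Whole numbers of reads were recovered for each of the 7 genes as the smallest ones that give its values, and 95% intervals were computed from them with the exact Poisson distribution. The true numbers may be a multiple of these, which would narrow the intervals. For Srf the smallest numbers fit a gene model far shorter than its longest transcript of 2616 bases, so its intervals are likely too wide. Those of Mef2c, Mef2a and Mkl2 also fit models shorter than their longest transcripts, of 6277, 5538 and 8295 bases. Their intervals may be too wide as well. The intervals cover counting error only. Of the stage markers, Pou5f1, a factor of pluripotency, was highest in ESC and Mesp1, a factor of early mesoderm, in MES. Isl1, a factor of heart progenitors, was highest in CP and Tnnt2, cardiac troponin T, in CM. Nkx2-5, also chosen as a CP marker, was highest in CM, with 178 RPKM there against 70.1 RPKM in CP. In RNA from whole cultures, fewer cells of a type and less RNA per cell cannot be told apart.

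Myocd and Mef2c had the widest ranges of the 7 genes. Both were near the bottom of the table in ESC, and both had their highest value in CP. Mef2c measured 0.0301 RPKM in ESC, then 1.83 RPKM in MES, 74.6 RPKM in CP and, last, 34.3 RPKM in CM. It was thus very low in ESC, detectable in MES and high at the 2 later stages, with the CP value above the CM value. The ESC value rests on at least 6 reads, with an interval of 0.0110 to 0.0654 RPKM. The MES value rests on at least 301 reads, with an interval of 1.63 to 2.05 RPKM. Among all genes of the table, Mef2c lay at percentiles 1.55, 25.5, 96.5 and 89.5 across these stages. Its highest value was 2480 times its lowest.

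Myocd stood at 0.0617, 0.313, 41.4 and 33.3 RPKM across ESC, MES, CP and CM. It was low at both early stages and high at both late ones. The 2 low values rest on 30 reads in ESC (interval 0.0416 to 0.0881 RPKM) and 125 reads in MES (0.260 to 0.373 RPKM), so that these intervals did not overlap. Myocd thus stayed under 1 RPKM in MES, where Mef2c had passed it. Its highest value was 670.2 times its lowest.

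**Figure D1:**
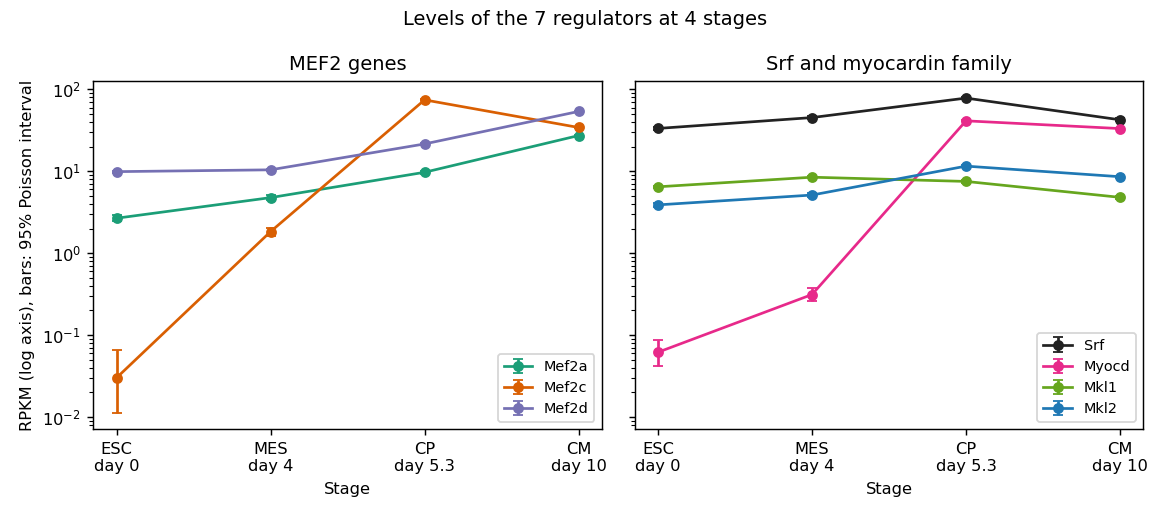
RPKM on a log axis at the 4 stages for the MEF2 genes (left) and for Srf and the myocardin family (right), with 95% Poisson intervals of the counted reads as bars. Mef2c and Myocd start at 0.0301 and 0.0617 RPKM in ESC and reach 74.6 and 41.4 RPKM in CP, while Srf stays between 33.4 and 78.4 RPKM.

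Mef2a and Mef2d, the MEF2 genes that many tissues use, showed another course, with each stage above the one before it in the deposited values. Mef2a stood at 2.67, 4.77, 9.73 and 27.3 RPKM across ESC, MES, CP and CM, and its CM value was 10.2 times its ESC value. Mef2d stood at 9.91, 10.4, 21.6 and 53.9 RPKM, and its CM value was 5.43 times its ESC value. For Mef2d the ESC and MES intervals overlapped (9.61 to 10.2 RPKM in ESC, 10.1 to 10.8 RPKM in MES), with a ratio of MES to ESC of 1.05 (interval 1.01 to 1.10). All other steps of the 2 genes lay outside their counting intervals. Both genes were highest in CM, a stage at which Mef2c was below its CP value.

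Srf was abundant throughout, at 33.4, 45.3, 78.4 and 42.6 RPKM across ESC, MES, CP and CM, between percentiles 86.9 and 96.7 of all genes. Its CP value was the highest and 2.35 times its ESC value. With the smallest read numbers the MES and CM intervals overlapped (43.3 to 47.5 RPKM in MES, 40.9 to 44.3 RPKM in CM). Those numbers are likely too low for Srf, so this overlap may not hold. Mkl2 had the same order of stages at its extremes, with 3.89, 5.13, 11.6 and 8.59 RPKM, lowest in ESC and highest in CP. Mkl1 varied least of the 7 genes, at 6.47, 8.48, 7.52 and 4.81 RPKM, with its highest value in MES and its lowest in CM, a ratio of 1.76. Over the 4 stages 6 of the 7 genes, all but Mkl1, ranged over 2-fold or more on the log2(RPKM + 1) scale, as did 63.2% of all genes. The median range was 2.33 for the 7 genes and 1.24 for all genes.

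The order of the levels changed from stage to stage. RPKM is a level per length, so it can be set side by side between genes, as far as the authors' gene models fit the transcripts in these cells. In ESC the order from high to low was Srf, Mef2d, Mkl1, Mkl2, Mef2a, Myocd and Mef2c, and only the intervals of Myocd and Mef2c overlapped among neighbours. In MES it was Srf, Mef2d, Mkl1, Mkl2, Mef2a, Mef2c and Myocd, and those of Mkl2 and Mef2a overlapped. In CP Mef2c (74.6 RPKM) stood next to Srf (78.4 RPKM), followed by Myocd, Mef2d, Mkl2, Mef2a and Mkl1. The intervals of Srf and Mef2c overlapped with the smallest read numbers. Those of Srf are likely too wide, so this overlap may not hold. In CM Mef2d was first, followed by Srf, Mef2c, Myocd, Mef2a, Mkl2 and Mkl1, and the intervals of Mef2c (34.3 RPKM) and Myocd (33.3 RPKM) overlapped. The overlaps that involve Mef2c, Mef2a or Mkl2 rest on the smallest read numbers too. Whether neighbours differ beyond the spread between cultures could not be tested.

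Within the MEF2 genes, the paralog with the highest level changed. The summed RPKM of Mef2a, Mef2c and Mef2d was 12.6, 17.0, 105.9 and 115.5 across ESC, MES, CP and CM. Mef2d made up 78.6% of this sum in ESC and 61.2% in MES. Mef2c made up 70.4% in CP, where Mef2d made up 20.4%. In CM the sum was spread over all 3 genes, with 46.6% from Mef2d, 29.7% from Mef2c and 23.7% from Mef2a. The sums of CP and CM were thus close, while their makeup was not.

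Within the myocardin family the change lay between MES and CP. The summed RPKM of Myocd, Mkl1 and Mkl2 was 10.4, 13.9, 60.5 and 46.7 across the same stages. Mkl1 and Mkl2 made up 62.1% and 37.3% of it in ESC and 60.9% and 36.9% in MES. Myocd made up 68.4% in CP and 71.3% in CM. Set against Srf, the DNA-binding partner, the family sum was 0.312, 0.307, 0.771 and 1.10 times the Srf level in ESC, MES, CP and CM. Myocd alone was 0.00185, 0.00690, 0.527 and 0.782 times the Srf level.

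**Figure D2:**
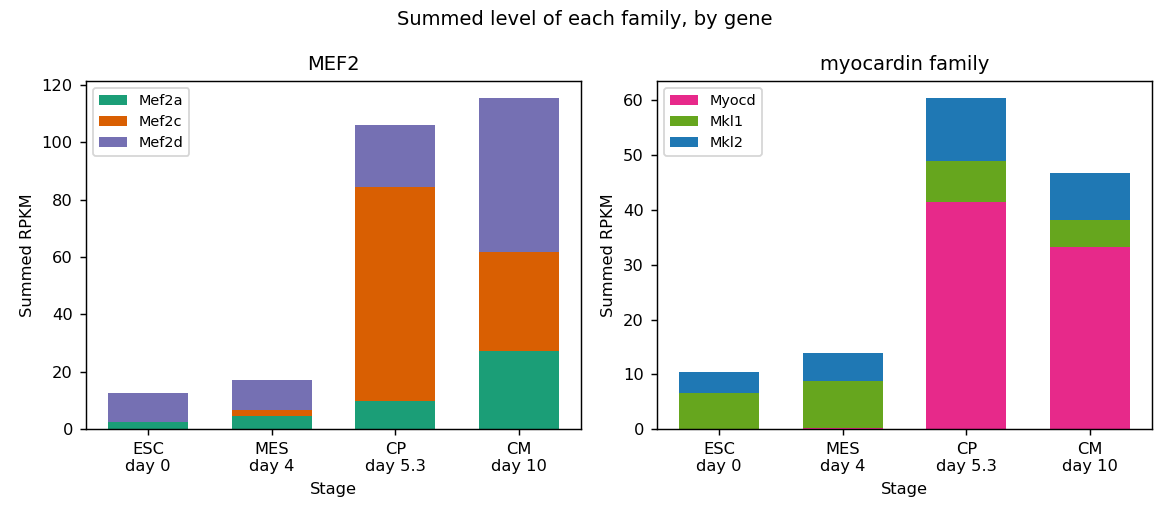
Summed RPKM at the 4 stages for Mef2a, Mef2c and Mef2d (left) and for Myocd, Mkl1 and Mkl2 (right), with 1 colour per gene. Mef2c fills 70.4% of the MEF2 bar in CP and 29.7% in CM, and Myocd fills 68.4% and 71.3% of the myocardin bars at those stages.

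Differences between stages were taken as log2(RPKM + 1), which understates those of low genes, and genes at least 2-fold apart on that scale were counted. From ESC to MES all 7 genes stood higher in MES, as did 53.0% of all genes, but the difference of Mef2d was -0.04 with quantile normalization and -0.05 with median-of-ratios scaling. Only Mef2c was at least 2-fold higher, as were 11.1% of all genes, and 0 were at least 2-fold lower, as were 11.2% of all genes. Its log2 difference was 1.46, with 1.83 RPKM in MES against 0.0301 RPKM in ESC. The ratio of its RPKM values had a 95% interval of 27.7 to 168, from the recovered reads. For Myocd the ratio of MES to ESC was 5.07 (interval 3.38 to 7.82), but at these low levels the log2 difference was 0.31. The other differences ran from 0.07 for Mef2d to 0.65 for Mef2a. The median difference was 0.34 for the 7 genes and 0.05 for all genes.

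From MES to CP, 3 of the 7 genes passed 2-fold in the direction of CP, namely Mef2c, Myocd and Mkl2, and 0 were lower. Of all genes, 8.91% were higher and 3.91% lower by that measure. Myocd stood at 41.4 RPKM in CP against 0.313 RPKM in MES, a log2 difference of 5.01 and a ratio of 132 (interval 111 to 159). Mef2c stood at 74.6 RPKM in CP against 1.83 RPKM in MES, a log2 difference of 4.74 and a ratio of 40.7 (interval 36.3 to 45.7). These 2 differences lay at percentiles 99.8 and 99.7 of all genes. The summed level of 10 endothelial markers was also higher in CP, with 343 RPKM in CP against 9.75 RPKM in MES, and its part in these differences was not tested. Mkl2 was just past the threshold, at 1.04. Mef2d, Mef2a and Srf were just short of it, at 0.98, 0.89 and 0.78. Mkl1 was the only member lower in CP, by -0.15. Quantile normalization put Mkl2 at 0.98 and Mef2d at 1.04. Mef2d also passed 2-fold with pseudocounts of 0.1 (1.04) and 0.5 (1.02), stages scaled to a sum of 1000000 (1.11) and median-of-ratios scaling (1.02). Mef2a passed it with a pseudocount of 0.1 (1.01) and with stages scaled to that sum (1.07). The count near the threshold thus depends on the scale.

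From CP to CM the genes divided. Mef2a and Mef2d were at least 2-fold higher in CM, as were 11.3% of all genes, and Mef2c was at least 2-fold lower, as were 12.8% of all genes. Mef2a differed by 1.40 on the log2 scale, with 27.3 RPKM in CM against 9.73 RPKM in CP, a ratio of 2.81 (interval 2.67 to 2.95). Mef2d differed by 1.28, with 53.9 RPKM in CM against 21.6 RPKM in CP, a ratio of 2.49 (interval 2.43 to 2.56). Mef2c differed by -1.10, with 34.3 RPKM in CM against 74.6 RPKM in CP, a ratio of 0.460 (interval 0.447 to 0.473). The median of all genes was -0.15 in this comparison, and with median-of-ratios scaling Mef2c stood at -0.94, short of 2-fold. Srf, Mkl1, Mkl2 and Myocd were also lower in CM but under 2-fold, at -0.87, -0.55, -0.39 and -0.31. Thus 2 of the 7 genes, Mef2a and Mef2d, stood higher in CM than in CP, as did 41.4% of all genes, and the other 5 were lower.

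Over the whole course, CM against ESC, Mef2c, Myocd, Mef2a and Mef2d were at least 2-fold higher in CM, as were 22.2% of all genes, and 0 were lower, as were 23.4% of all genes. The log2 differences were 5.10 for Mef2c, 5.01 for Myocd, 2.95 for Mef2a and 2.33 for Mef2d. Mkl2 was just short of it at 0.97, with a ratio of RPKM values of 2.21. It passed 2-fold, which makes the count 5, with pseudocounts of 0.1 (1.12) and 0.5 (1.05), stages scaled to a sum of 1000000 (1.12) and median-of-ratios scaling (1.03). Srf differed by 0.34, with 42.6 RPKM in CM against 33.4 RPKM in ESC, and Mkl1 by -0.36. These 4 comparisons share stage values, so a member's differences are not independent of each other.

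**Figure D3:**
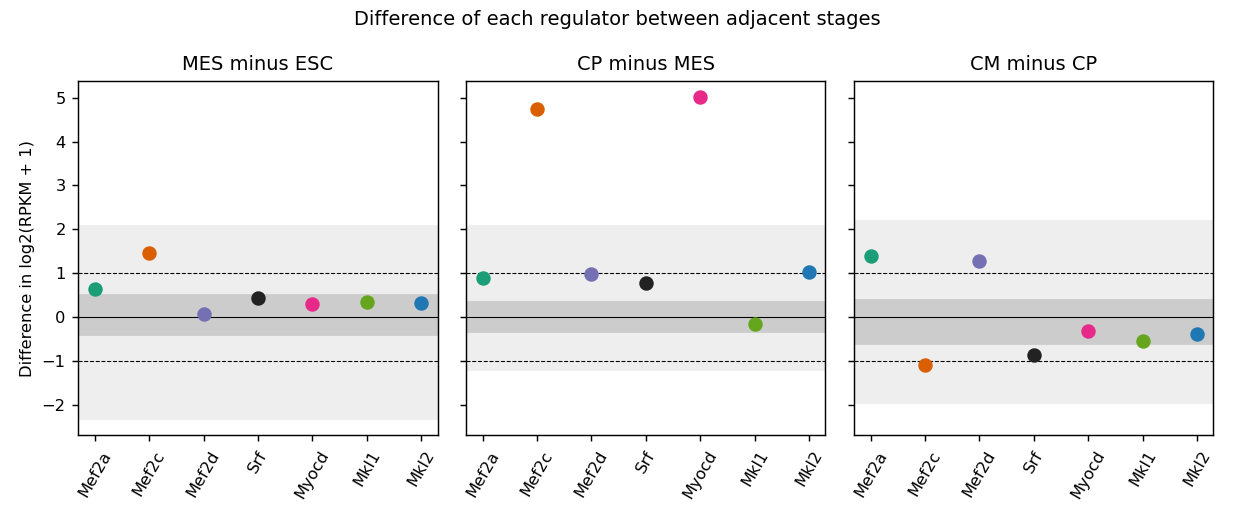
Difference in log2(RPKM + 1) of each regulator for MES minus ESC, CP minus MES and CM minus CP. The dark band holds the central 50% of all genes, the light band the central 95%, and dashed lines mark 2-fold. Myocd (5.01) and Mef2c (4.74) lie above the light band in CP minus MES, and Mef2a (1.40) and Mef2d (1.28) above the 2-fold line in CM minus CP.

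The promoters of Srf and Mef2a are shown because each holds a site for the kind of factor it encodes. They are RefSeq windows of 250 bases before to 50 bases after a gene's start on build GRCm38.p6, a later build than that of the deposited values, and 6 of the 7 genes had at least 1 window, 11 windows in all. Capitals mark a CArG box in Srf and a MEF2 site in Mef2a. Only exact matches were counted, of CCWWWWWWGG for the CArG box and YTAWWWWTAR for the MEF2 site. Here W is A or T, Y is C or T and R is A or G.
Srf, chr17:46556113-46556412, minus strand: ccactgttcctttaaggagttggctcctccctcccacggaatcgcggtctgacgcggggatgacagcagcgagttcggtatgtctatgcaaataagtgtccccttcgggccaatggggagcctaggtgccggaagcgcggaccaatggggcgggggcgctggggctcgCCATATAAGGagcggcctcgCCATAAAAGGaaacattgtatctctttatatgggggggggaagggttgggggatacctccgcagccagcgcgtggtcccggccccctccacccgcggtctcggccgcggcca
Mef2a, chr7:67372809-67373108, minus strand: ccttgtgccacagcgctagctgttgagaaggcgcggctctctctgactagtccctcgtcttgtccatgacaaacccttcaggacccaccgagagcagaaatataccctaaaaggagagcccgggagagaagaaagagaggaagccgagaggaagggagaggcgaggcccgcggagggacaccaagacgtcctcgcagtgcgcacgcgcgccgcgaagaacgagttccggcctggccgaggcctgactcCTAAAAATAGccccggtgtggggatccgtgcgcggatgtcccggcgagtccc
Both strands were searched, and either pattern reads the same on both. The Srf window held 2 CArG boxes, CCATATAAGG at bases 169 to 178 and CCATAAAAGG at bases 189 to 198, counted from 1 at the 5′ end of the window. The Mef2a window held a MEF2 site at bases 249 to 258, across the annotated start. A MEF2 site was also found in 1 of the 3 Mkl2 windows. The 3 Mef2c windows and the Mef2d window held no MEF2 site, and no member but Srf had a CArG box in a window. None of the sites found in members overlapped a TATA box (TATAAA). Of 32851 windows in the reference, 1.63% held a CArG box, 3.19% a MEF2 site and 13.6% a TATA box, and these motifs can overlap each other. These matches describe sequence and do not show binding.

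Genes described elsewhere as targets of these factors were followed through lists that were chosen with earlier results of these data known. Their counts stand beside the shares of all genes given above. Of 13 smooth muscle contractile genes regulated by SRF and myocardin, 10 were at least 2-fold higher in CP than in MES and 1 was lower, with a median log2 difference of 1.93, against -0.03 for all genes. From ESC to MES, 6 had been lower and 1 higher in MES (median -0.69), where 11.2% of all genes were lower and 11.1% higher. Acta2, smooth muscle actin, stood at 131, 1.96, 498 and 1944 RPKM across ESC, MES, CP and CM. Myl9, a regulatory myosin light chain, stood at 32.9, 3.61, 139 and 975 RPKM, and Tagln, transgelin, at 134, 2.26, 43.2 and 408 RPKM. Tpm1, tropomyosin 1, stood at 67.3, 31.3, 193 and 356 RPKM. All 4 of these genes were lowest in MES, while Srf, Mkl1 and Mkl2 stood above their ESC values there. Synm, which encodes the intermediate filament protein synemin, went the other way, with 0.742 RPKM in CP against 8.48 RPKM in MES.

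Of 10 striated muscle genes described as SRF targets, 6 were at least 2-fold higher in CP than in MES and 0 lower (median 3.41). From CP to CM, 8 were higher in CM and 0 lower (median 3.33), although Srf and Myocd were then below their CP values. Actc1, cardiac actin, was higher in CP than in MES by 5.64 on the log2 scale and higher in CM than in CP by 3.47. Myh6 and Myh7, the cardiac myosin heavy chains, differed by 6.28 and 6.04 from MES to CP. Nppa, atrial natriuretic peptide, stood at 0.232 RPKM in CP and at 0.194 RPKM in MES. It differed by 9.14 between CM and CP. Smyd1, a muscle methyltransferase that is also a MEF2C target in mouse, stood at 104 RPKM in CM, 103 RPKM in CP and 0.0671 RPKM in MES. Levels of the actin and myosin genes may include reads of close relatives.

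The promoters of Actc1 and of Acta1, the skeletal actin that early heart muscle also uses, are shown as examples of list genes with a CArG box, in capitals, in the same kind of RefSeq window.
Actc1, chr2:114052826-114053125, minus strand: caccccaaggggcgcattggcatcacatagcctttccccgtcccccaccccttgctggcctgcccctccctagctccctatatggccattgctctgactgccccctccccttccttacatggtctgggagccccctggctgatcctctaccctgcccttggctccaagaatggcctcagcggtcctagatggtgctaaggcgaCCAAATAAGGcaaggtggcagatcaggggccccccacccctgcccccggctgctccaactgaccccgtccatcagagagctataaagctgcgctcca
Acta1, chr8:123894726-123895025, minus strand: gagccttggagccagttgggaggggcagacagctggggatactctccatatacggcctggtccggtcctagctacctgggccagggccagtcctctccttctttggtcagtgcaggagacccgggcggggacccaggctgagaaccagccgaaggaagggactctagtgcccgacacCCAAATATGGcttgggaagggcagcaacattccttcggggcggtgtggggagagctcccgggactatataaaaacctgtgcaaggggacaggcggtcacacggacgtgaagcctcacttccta
In all, 3 of the 8 striated muscle list genes with a window held a CArG box, as did 1 of 10 in the smooth muscle list, 3 of 9 in the MRTF list, 1 of 6 in the immediate-early list and 0 of 8 in the MEF2 target list. Of all genes with a window, 1.81% held a CArG box. A near match such as ccctatatgg, in the windows of Acta2 and Actc1, was not counted, nor were sites outside the windows. A gene without a match may therefore still hold a CArG box. A MEF2 site was found in 2 of the 8 MEF2 target list genes with a window. It was found in 1 of 8 in the striated list, 1 of 9 in the MRTF list and 0 in the other 2 lists. Of all genes, 3.70% held a MEF2 site. The sites in Srpk3 (MEF2 target list) and Fhl2 (striated list) overlapped a TATA box. Acta1 stood at 25.4, 0.525, 24.4 and 259 RPKM across ESC, MES, CP and CM.

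Of 10 muscle genes described as MEF2 targets, 8 were in the table. These were not the same 8 as those with a window, which include Xirp2 and its MEF2 site. Xirp2 was not in the table. In CP, 4 of the 8 passed 2-fold over MES and 0 were lower (median 1.74), and in CM 7 were higher than in CP and 0 lower (median 2.20). The count of 4 depends on the scale, since 7 passed 2-fold with a pseudocount of 0.1 or 0.5 or with stages scaled to a sum of 1000000. Myl2, the ventricular myosin light chain, stood at 0.0983, 0.248, 7.03 and 113 RPKM across ESC, MES, CP and CM. Mb, myoglobin, stood at 0.429 RPKM in ESC, was listed at 0 in MES and reached 0.515 RPKM in CP and 112 RPKM in CM. Atp2a2, the calcium pump of the sarcoplasmic reticulum, was already at 72.3 RPKM in ESC and stood at 446 RPKM in CM against 95.7 RPKM in CP. Smyd1 and Atp2a2 are in both this list and the striated SRF list. All 8 genes had their highest value in CM, though Smyd1 was nearly level there with CP, with a log2 difference of 0.01. Mef2a and Mef2d were also highest in CM and Mef2c was not, and any link between these was not tested.

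Of 12 cytoskeletal genes described as MRTF targets, 2 were at least 2-fold higher in CP than in MES and 0 lower (median 0.60), and 2 were higher and 3 lower in CM than in CP (median 0.05). Actb, cytoplasmic actin, stood at 1873, 1554, 1806 and 717 RPKM across ESC, MES, CP and CM. Ctgf and Cyr61, matricellular proteins that also respond to YAP, stood at 199 and 349.8 RPKM in CM against 4.74 and 35.5 RPKM in CP. Tgfb1i1, a focal adhesion adaptor, stood at 2.48, 4.85, 18.3 and 20.7 RPKM over the 4 stages. Of 9 immediate-early genes driven by SRF with ternary complex factors, 5 were at least 2-fold higher and 2 lower in MES than in ESC (median 1.26), and 3 were higher among genes reaching 3 RPKM. In CP 0 were higher or lower than in MES (median 0.02), and in CM 5 were higher than in CP and 0 lower (median 1.14). Fos stood at 2.68, 41.9, 50.3 and 176 RPKM, Fosb at 1.27, 22.0, 17.8 and 40.5 RPKM, and Egr1 at 19.9, 94.0, 56.3 and 192 RPKM across ESC, MES, CP and CM. Ier2 stood at 117, 158, 205 and 277 RPKM. Such genes also respond to dissociation and handling of cells, whose part in these values was not tested.

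**Figure D4:**
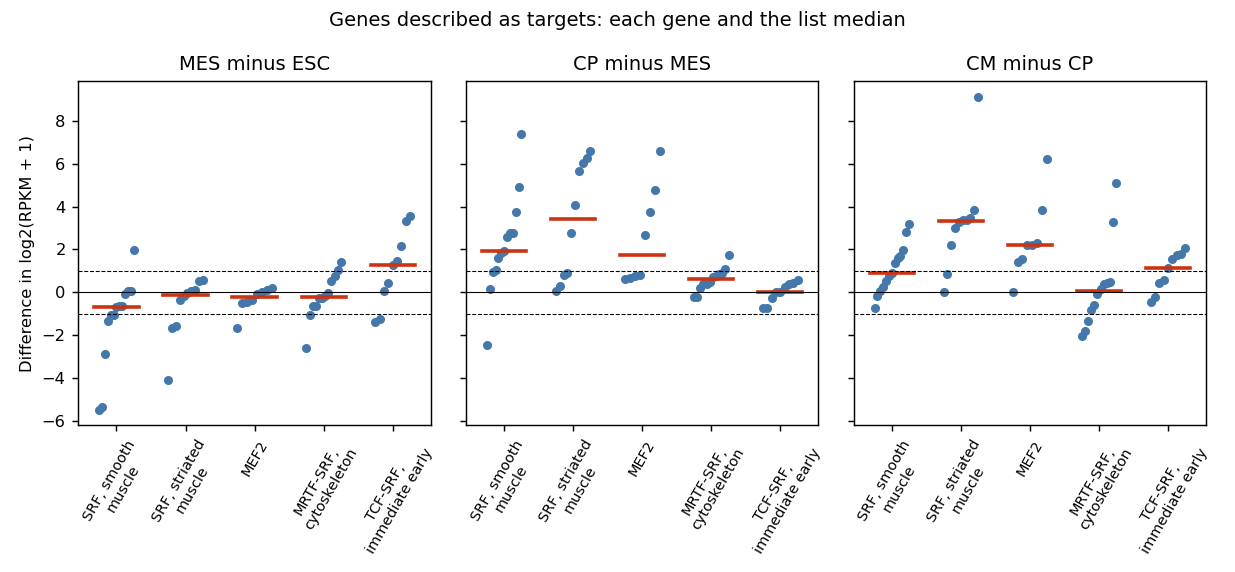
Difference in log2(RPKM + 1) of each gene in the 5 target lists for MES minus ESC, CP minus MES and CM minus CP, with the list median as a red line and dashed lines at 2-fold. In CP minus MES the medians are 1.93 and 3.41 for the SRF muscle lists, 1.74 for MEF2 targets, 0.60 for MRTF targets and 0.02 for immediate-early genes.

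Partners and regulators of the factors were followed in the same way. Among 5 MEF2 repressors, 3 were at least 2-fold higher in CM than in ESC and 0 lower. These were the class IIa deacetylase genes Hdac9, at 0.186, 0.201, 2.02 and 14.8 RPKM across ESC, MES, CP and CM, Hdac7, at 2.08, 13.7, 23.0 and 19.9 RPKM, and Hdac5, at 6.84, 13.6, 22.7 and 39.0 RPKM. Cabin1, a calcineurin-binding repressor of MEF2, stood at 16.2, 15.7, 14.6 and 9.48 RPKM. Hdac5 and Hdac9 were thus highest in CM, as were Mef2a and Mef2d. Of 14 activators of MEF2, 13 were in the table, and 6 of these were at least 2-fold higher and 1 lower in CM than in ESC. Prkd1, protein kinase D1, which phosphorylates class IIa deacetylases, stood at 0.800, 16.5, 15.4 and 9.69 RPKM. Camk2d, the main cardiac CaM kinase II gene, stood at 0.499, 0.667, 2.06 and 9.34 RPKM. Wwtr1, the coactivator TAZ, stood at 6.74, 7.37, 21.6 and 31.8 RPKM, and Carm1, an arginine methyltransferase, at 49.0, 79.8, 44.7 and 26.9 RPKM. Of the 13, 1 was at least 2-fold higher in CP than in MES and 0 lower.

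Of the 3 ternary complex factors, Elk3 was at least 2-fold higher in CP than in MES, with 16.6 RPKM in CP against 1.83 RPKM in MES. Elk1 stood at 6.51 RPKM in CP against 6.86 RPKM in MES, and Elk4 at 3.29 RPKM in CP against 3.49 RPKM in MES. Of 10 other partners of SRF, 6 were at least 2-fold higher in CP than in MES and 0 lower (median 2.00). Csrp3, muscle LIM protein, was listed at 0 in MES, with 222 RPKM in CM against 15.5 RPKM in CP. Csrp2, its smooth muscle relative, stood at 113, 67.0, 286 and 265 RPKM across ESC, MES, CP and CM. Nkx2-5, a cardiac homeobox factor that works with SRF and myocardin, stood at 70.1 RPKM in CP against 1.30 RPKM in MES. Gata4, a zinc finger partner of SRF, was higher in MES than in ESC by 5.18 on the log2 scale, a step at which Myocd differed by 0.31.

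Markers of other cell types moved with some of these values. Endothelial cells also express Mef2c, and of 10 markers of that type 9 passed 2-fold in CP over MES. Their summed level was 30.9, 9.75, 343 and 129 RPKM across ESC, MES, CP and CM, highest in CP as was Mef2c. In CM 5 of the 10 were lower and 1 higher than in CP. Cdh5, VE-cadherin, stood at 35.5 RPKM in CM, 71.3 RPKM in CP and 0.215 RPKM in MES. Of the other markers named by the rule, Cldn5 stood at 48.5 RPKM, Sox18 at 62.1 RPKM and Egfl7 at 39.8 RPKM in CP, and Emcn was listed at 0 in ESC and MES. Of 7 blood markers, 6 were in the table, 5 of them at least 2-fold higher in CP than in MES and 5 lower in CM than in CP, with summed levels of 2.41, 4.20, 255 and 10.8 RPKM over the 4 stages. Hba-x was listed at 0 in ESC and MES, and Hbb-bh1 at 0 in ESC. Neurons use MEF2 genes too. Of 7 neural markers, 4 were in the table, with a summed level of 203, 19.0, 11.3 and 2.96 RPKM, lowest in CM. Most of the ESC sum came from Stmn2 (101 RPKM) and Tubb3 (97.2 RPKM). From MES to CP, 1 of the 4 was at least 2-fold lower and 1 higher. The higher one was Pax6, with 4.21 RPKM in CP against 0.0195 RPKM in MES. Of 7 skeletal muscle markers 1 was in the table, Actn3, at 32.1, 6.05, 4.22 and 1.96 RPKM. The part of these cells in the values of Mef2c, Mef2d and the other members was not tested.

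The members were also compared with every other gene by the shape of their profile. The measure was the Euclidean distance between log2(RPKM + 1) profiles centred on each gene's mean over the 4 stages, and the 4 nearest genes with a name were taken. It rests on 4 points per gene, and the nearest genes say nothing of shared control. Among the 21 pairs of members, Mef2a and Mef2d were closest (0.50), followed by Srf and Mkl2 (0.56), Srf and Mkl1 (0.85) and Mef2c and Myocd (0.99). Myocd and Mkl1 were farthest apart (5.27). The nearest genes to Myocd were Sphkap, an A-kinase anchoring protein (0.23), Ctla2a (0.37), Rcsd1 (0.48) and Cdh5 (0.67). Sphkap stood at 0.0454, 0.0806, 40.1 and 33.3 RPKM across ESC, MES, CP and CM, close to Myocd at the late stages. The nearest to Mef2c were Unc45b, a myosin chaperone of striated muscle (0.69), Igf2, a growth factor (0.89), Myocd and Rcsd1 (1.03). Unc45b stood at 0.779, 1.74, 78.9 and 33.4 RPKM, also lower in CM than in CP.

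Profiles of the less variable members had much closer neighbours. Mef2a lay nearest to Scarb1, a lipoprotein receptor (0.04), then Arsg (0.08), Zbtb4 (0.19) and Pink1, a mitochondrial kinase (0.19). Mef2d lay nearest to Cyp2d22 (0.03), Hcfc2 (0.08), Grb14 (0.13) and the splicing regulator Celf2 (0.14). Srf lay nearest to Rnft2 (0.09), Fgd6 (0.10), Mtch1 (0.15) and Hmgcll1 (0.15). Mkl1 lay nearest to the adaptor Crkl (0.03), Msl2 (0.04), the histone methyltransferase gene Mll1 (0.04) and Prr11 (0.05). Mkl2 lay nearest to Wbp5 (0.04), Katnal1 (0.11), Cntln (0.13) and the meiotic gene Msh5 (0.14). Genes near 0 RPKM at some stage are drawn together by the pseudocount, and small ranges give small distances.

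How far reads could be shared with other genes was measured on the longest transcript of each member in the GENCODE M21 annotation. The percentage of its 32-base words that also occur in transcripts of other genes, on either strand, was 9.35% for Mef2d, 4.92% for Mef2a, 3.26% for Mkl2, 0.885% for Myocd and 0% for Mef2c, Srf and Mkl1. Between the members themselves 0% were shared, so the paralogs can be told apart at this word length. Exons of Mef2a overlap those of Lysmd4, Mef2d those of 1700113A16Rik, Mkl1 those of Sgsm3 and Mkl2 those of Gm15738. The library protocol in the labels describes no step that marks strand, so how reads in those overlaps were assigned is unknown.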

How the data were processed

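Values are RPKM, deposited by the authors as a single table with 1 column per stage, per the file headers. Alignment used Novoalign 2.07.00 and build mm9, per the submitters' processing notes. Not given in the sources used here are the read counter, the gene models and the way a stage's 2 libraries were merged. Every listed gene exceeds 1 RPKM at some stage; others were not analysed here.

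The planned limma test for separate libraries was not run because the table has no library columns. Differences compare log2(RPKM + 1) between stages, and calls are at least 2-fold. Relative depths were set so that low values fell on whole reads, which held for 70.7% of 2241 low genes and for 0% with wrong depths (relative tolerance 4e-07). The absolute depth rests on 1520 genes with GENCODE M21 exon lengths, of which 24.6% lay within 0.1% of it. Member reads are the smallest whole numbers within a relative tolerance of 2.5e-07. In reads simulated for 389 genes, 98.5% were recovered, all correct up to a common divisor.

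Members and gene lists were chosen with earlier results of these data known. The results of 1 list are not reported here. Named genes are all members, the 3 genes of each list with the widest range and the 1 other with the highest mean, and the 4 genes nearest to each member. Stage markers (Pou5f1, Mesp1, Isl1 and Tnnt2 are named) came from a separate marker list. Synm, Acta1, Emcn and Mef2b lie outside that rule and were named after their values were seen. Srpk3, Fhl2 and Xirp2 also lie outside it and were named for their promoter matches. Alternatives were other pseudocounts, scalings, fold thresholds and a minimum level. Python 3.11.15, numpy 2.4.6, pandas 2.3.3, scipy 1.17.1 and matplotlib 3.10.9 were used.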

Additional observations from a re-analysis of the deposited data

How the results depend on the processing

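No paired analysis was possible because the table has no column per library. For the same reason leaving out each replicate was not run. The 4 comparisons give 28 member differences, of which 0 of those at least 2-fold changed sign under pseudocounts of 0.1 and 0.5, the 3 other scalings or a minimum of 3 RPKM. The difference of Mef2d between MES and ESC, 0.07, turned to -0.04 with quantile normalization and to -0.05 with median-of-ratios scaling. Members past the fold threshold, higher in MES than in ESC, numbered 2 with a pseudocount of 0.1 and at 1.5-fold, and 0 at 4-fold. Those higher in CP than in MES numbered 5 with a pseudocount of 0.1 or after scaling every stage to sum to 1000000, and 6 at 1.5-fold. Those lower in CM than in CP numbered 0 with median-of-ratios scaling, 2 at 1.5-fold and 0 at 4-fold, and those higher in CM than in CP numbered 0 at 4-fold. Scaling to a sum of 1000000 moved the median of all genes in CM minus CP to -0.29. The lowest member left out, Mef2d made up 68.6% of the MEF2 sum in MES and 61.1% in CM, Mef2c 77.5% in CP, Mkl1 62.3% of the myocardin family in MES, and Myocd 78.1% in CP and 79.5% in CM. With Mef2b added to the sum, a choice made after seeing the data, Mef2d made up 56.3% in ESC, 58.8% in MES and 43.8% in CM, and Mef2c 69.4% in CP. Of 320 counts of the target lists under these alternatives, 39 moved by over 1.5 times. Depth limits mainly the ESC values of Mef2c and Myocd.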

Other observations

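Mef2b, the remaining MEF2 gene, is not among the 7 genes and was added after its values were seen. It stood at 4.98, 0.698, 1.54 and 7.41 RPKM across ESC, MES, CP and CM, with intervals of 4.55 to 5.43, 0.530 to 0.902, 1.29 to 1.83 and 6.93 to 7.91 RPKM. In the deposited values Mef2b was the only MEF2 gene that stood lower in MES than in ESC, with a log2 difference of -1.82. In ESC it made up 28.3% of the summed RPKM of all 4 MEF2 genes, second to Mef2d, against 3.93% in MES, 1.43% in CP and 6.03% in CM. Its exons overlap those of Borcs8 in GENCODE M21, and how reads in that overlap were assigned is unknown.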
